A study of Mus musculus with 9 samples.

Results

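The genes that encode collagen chains were followed in pancreatic islets of mice that lack *Raptor*, the defining subunit of the growth regulator mTORC1, in their insulin-producing beta cells. A gene was taken as a collagen chain gene when its symbol in the array annotation had the form Col, a number, the letter a and a number. This gave 42 of the 18193 genes with a probe set of their own, and 32 of the 42 were bright enough to be tested. Islets of 8-week-old male βRapKO mice (labelled KO, 4 arrays) were compared with islets of WT mice of the same age and sex (5 arrays), and each array held RNA pooled from the islets of 5 animals of 1 genotype. βRapKO mice carried floxed *Raptor* on both alleles and a transgene in which a rat insulin promoter drives Cre (RIP-Cre), whereas WT mice were littermates with the same floxed alleles but no Cre, so that no group held Cre alone. The labels give the strain as C57BL/6, and the study's methods describe a mixed background for the Cre line. RIP-Cre acts in beta cells, whereas the islet cells best known for making collagen are stromal and endothelial cells, in which this promoter is not known to be active. Islets were freed with collagenase and picked by hand.

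Collagens are secreted matrix proteins whose chains wind around each other into a rod-like helix. Fibrillar collagens pack into the tough fibres of connective tissue, type IV collagen forms the sheet of basement membranes, type VI forms fine beaded filaments beside them, and other classes decorate fibrils or span the cell membrane. In islets, basement membrane is laid down chiefly around capillaries, and fibrillar collagen lies in the capsule and around larger vessels.

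Of the 32 tested collagen genes, 6 were higher and 1 was lower in βRapKO islets. Those higher were the fibrillar chains *Col1a2*, *Col3a1* and *Col5a2*, the type VI chain *Col6a1*, the network-forming chain *Col8a1* and the type IV chain *Col4a5*, and the lower one was the type VI chain *Col6a3*. Over all 13644 genes tested with limma at an adjusted p of 0.05, 6.30% were called, 3.67% higher and 2.63% lower. These are 501 higher and 359 lower genes, which became 214 and 260 when each array was centred on its median. A positive difference was found in 25 of the 32, against 56.2% of all genes, and the median log2 difference was 0.35 against 0.04 for all genes.

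The sequence before the annotated start is shown for those genes on which the comparisons below turn. These are *Col1a2* and *Col3a1*, which had the largest differences, and *Col6a1* and *Col6a3*, which moved in opposite directions. Also shown are the type IV pairs *Col4a1* with *Col4a2* and *Col4a5* with *Col4a6*, each of which lies head to head in the genome. Each line gives the 150 bases before the start annotated by RefSeq on GRCm38.p6, 5′ to 3′ on the gene's own strand, and capitals mark a CCAAT box (CCAAT or ATTGG), a GC box (GGGCGG or CCGCCC) or a TATA box (TATAAA or TTTATA), searched on both strands.
Col1a2, chr6:4505468-4505617, plus strand: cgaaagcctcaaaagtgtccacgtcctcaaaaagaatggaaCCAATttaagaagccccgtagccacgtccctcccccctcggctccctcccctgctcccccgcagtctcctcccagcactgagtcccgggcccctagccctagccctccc
Col3a1, chr1:45311388-45311537, plus strand: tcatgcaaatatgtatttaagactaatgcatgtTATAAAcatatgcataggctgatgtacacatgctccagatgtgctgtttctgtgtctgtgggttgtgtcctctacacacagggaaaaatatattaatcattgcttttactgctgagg
Col6a1, chr10:76726045-76726194, minus strand: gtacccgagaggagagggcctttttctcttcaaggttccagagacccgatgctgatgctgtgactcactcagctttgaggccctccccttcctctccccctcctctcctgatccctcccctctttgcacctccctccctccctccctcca
Col6a3, chr1:90843972-90844121, minus strand: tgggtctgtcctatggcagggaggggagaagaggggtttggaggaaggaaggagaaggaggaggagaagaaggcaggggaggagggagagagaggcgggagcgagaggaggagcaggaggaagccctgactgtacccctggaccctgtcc
Col4a1, chr8:11312827-11312976, minus strand: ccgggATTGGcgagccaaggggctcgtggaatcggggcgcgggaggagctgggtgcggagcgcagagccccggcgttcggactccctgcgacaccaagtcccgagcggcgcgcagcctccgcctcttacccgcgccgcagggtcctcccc
Col4a2, chr8:11312655-11312804, plus strand: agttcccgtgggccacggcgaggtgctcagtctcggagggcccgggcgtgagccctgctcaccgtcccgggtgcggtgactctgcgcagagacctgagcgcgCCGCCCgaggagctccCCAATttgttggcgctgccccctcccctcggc
Col4a5, chrX:141475269-141475418, plus strand: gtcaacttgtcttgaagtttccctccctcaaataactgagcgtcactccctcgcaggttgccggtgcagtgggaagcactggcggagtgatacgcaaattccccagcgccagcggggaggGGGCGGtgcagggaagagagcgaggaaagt
Col4a6, chrX:141474077-141474226, minus strand: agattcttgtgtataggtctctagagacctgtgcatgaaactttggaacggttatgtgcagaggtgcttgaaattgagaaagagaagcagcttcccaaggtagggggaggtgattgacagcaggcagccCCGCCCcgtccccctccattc

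No match in these lines overlapped another. *Col1a2* held a CCAAT box, *Col3a1* a TATA box, and *Col6a1* and *Col6a3* none of the motifs in this stretch. RefSeq windows were found for 33 of the 42 genes, 36 windows in all, and *Col12a1*, *Col14a1*, *Col1a1*, *Col22a1*, *Col26a1*, *Col2a1*, *Col4a3*, *Col5a2* and *Col9a3* had none here. In the 250 bases before the start, a CCAAT box was found in 13 of the 36 collagen windows and in 33.8% of 32817 windows of all genes. A GC box was found in 21 of 36 against 32.7%, and a TATA box in 5 of 36 against 12.4%. These are matches of letters and were not read as binding sites.

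**Figure D1:**
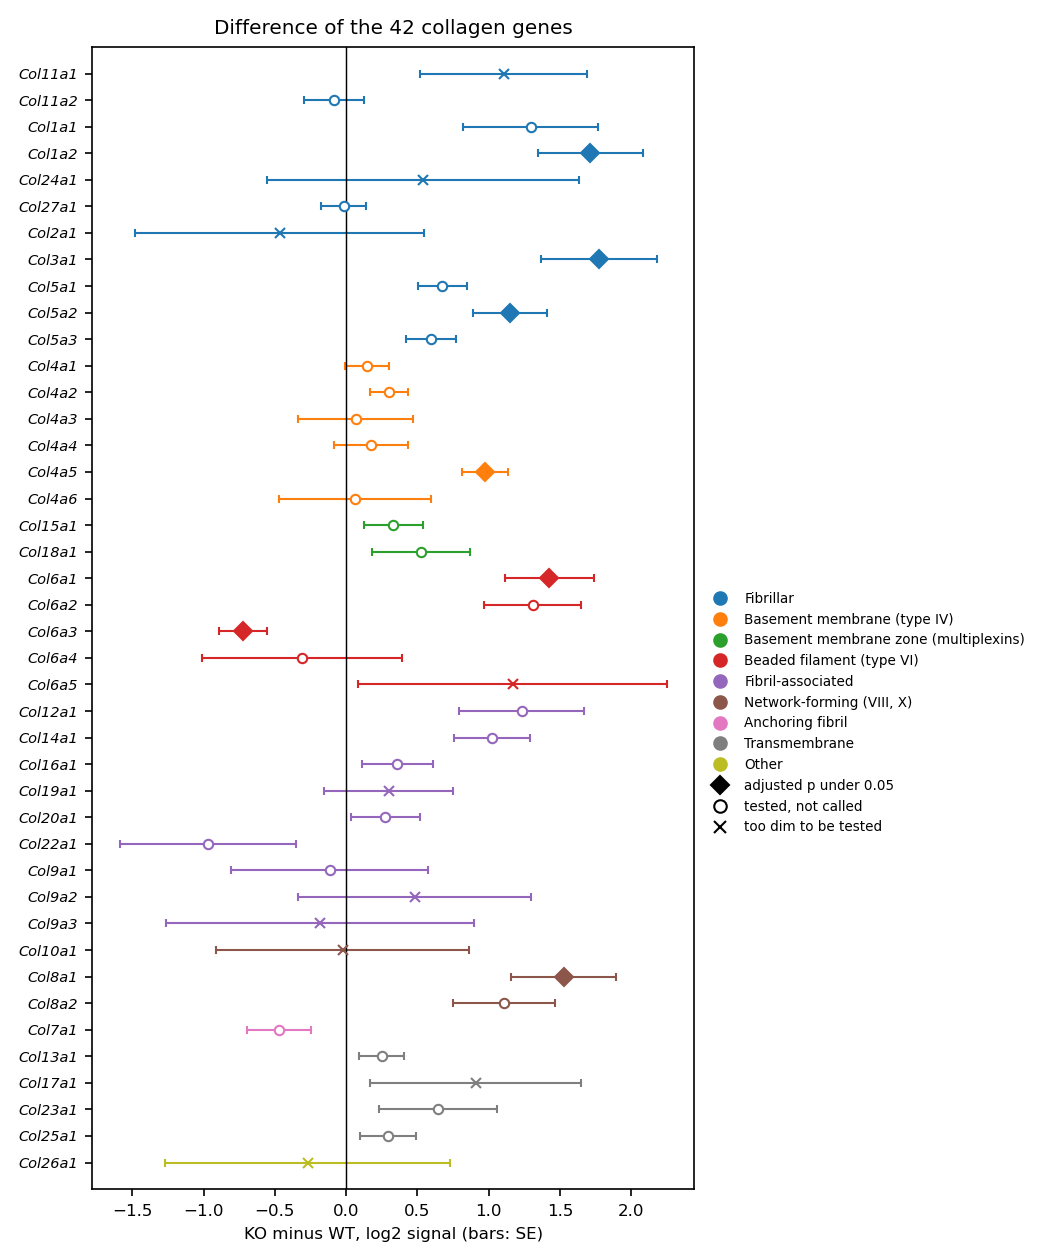
Difference between KO and WT islets in log2 signal (x axis) for each of the 42 collagen genes (y axis), coloured by class, with bars for the SE of the limma fit. Diamonds mark the 7 called genes, open circles the other 25 tested genes and crosses the 10 genes too dim to be tested, for which the fit without a filter is drawn. Most called genes lie right of 0, and *Col6a3* lies left of it.

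Fibrillar collagens make up the bulk of connective tissue fibres. Of 11 fibrillar genes 8 were tested, and 3 of them were higher, none was lower and 5 were not called, with a median log2 difference of 0.91. *Col3a1*, the only chain of type III collagen, which is found in soft tissues and vessel walls, had log2 signals of 10.54, 10.42, 11.95, 10.99 and 12.20 on WT arrays 1 to 5 and of 13.59, 12.63, 12.64 and 13.12 on KO arrays 1 to 4. Every KO array lay above every WT array, and within WT arrays 3 and 5 lay well above the rest. The difference was 1.77 ± 0.41 (SE), or 3.42-fold, with an adjusted p of 0.0386. *Col1a2*, which encodes the α2 chain of type I collagen, was measured at 8.96, 9.12, 10.31, 9.14 and 10.64 on the WT arrays and at 11.69, 11.28, 11.07 and 11.36 on the KO arrays. Again the groups did not overlap, and WT arrays 3 and 5 were the nearest to KO. *Col1a2* was 3.28-fold higher in βRapKO islets (1.71 ± 0.37 on the log2 scale, adjusted p = 0.0302).

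The α1 chain of the same type I trimer, *Col1a1*, did not pass the test. Its brighter probe set read 6.85, 6.36, 8.30, 6.02 and 7.97 in WT islets against 8.56, 8.75, 7.85 and 8.42 in KO islets. Here KO array 3 fell below WT arrays 3 and 5, and the WT spread was wide (SD 1.00, n = 5). The log2 difference was 1.29 ± 0.47 with an adjusted p of 0.149. A second, dimmer probe set for *Col1a1* gave a larger difference, 3.25 ± 0.60 (4.10 ± 1.23 in WT and 7.34 ± 0.38 in KO islets, SD), with no overlap. Its adjusted p over all 34945 single-gene probe sets was 0.0528, so it also stayed short of the threshold. Whether the α1 and α2 chains changed unequally was tested on the log2 difference *Col1a2* minus *Col1a1* of each array, which moved by 0.42 ± 0.26 (exact permutation p = 0.175, two-sided, adjusted p = 0.349 over 11 chain pairs).

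Type V collagen, a minor component that starts fibrils and sets their width, had a positive difference in each of its chains by the brightest probe set. *Col5a2* lay at 7.97, 7.59, 8.77, 8.04 and 8.72 across WT arrays and at 9.75, 9.20, 9.16 and 9.34 across KO arrays. No KO array overlapped WT, and *Col5a2* was 2.22-fold higher (1.15 ± 0.26, adjusted p = 0.0358). *Col5a1* values were 6.80, 7.27, 7.03, 6.73 and 7.58 on the WT arrays and 7.86, 7.74, 7.82 and 7.60 on the KO arrays. These too did not overlap, although the highest WT array came within reach of the lowest KO array. *Col5a1* missed the threshold at 0.68 ± 0.17 (adjusted p = 0.0558), as did *Col5a3* at 0.59 ± 0.17 (adjusted p = 0.0820). Further probe sets gave 0.80 ± 0.33 and -0.32 ± 0.69 for *Col5a1* and -0.65 ± 0.83 for *Col5a3*, and each overlapped between groups. The cartilage-type chain *Col11a2* and *Col27a1* had differences of -0.08 and -0.02, and *Col2a1*, *Col11a1* and *Col24a1* were too dim to be tested.

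**Figure D2:**
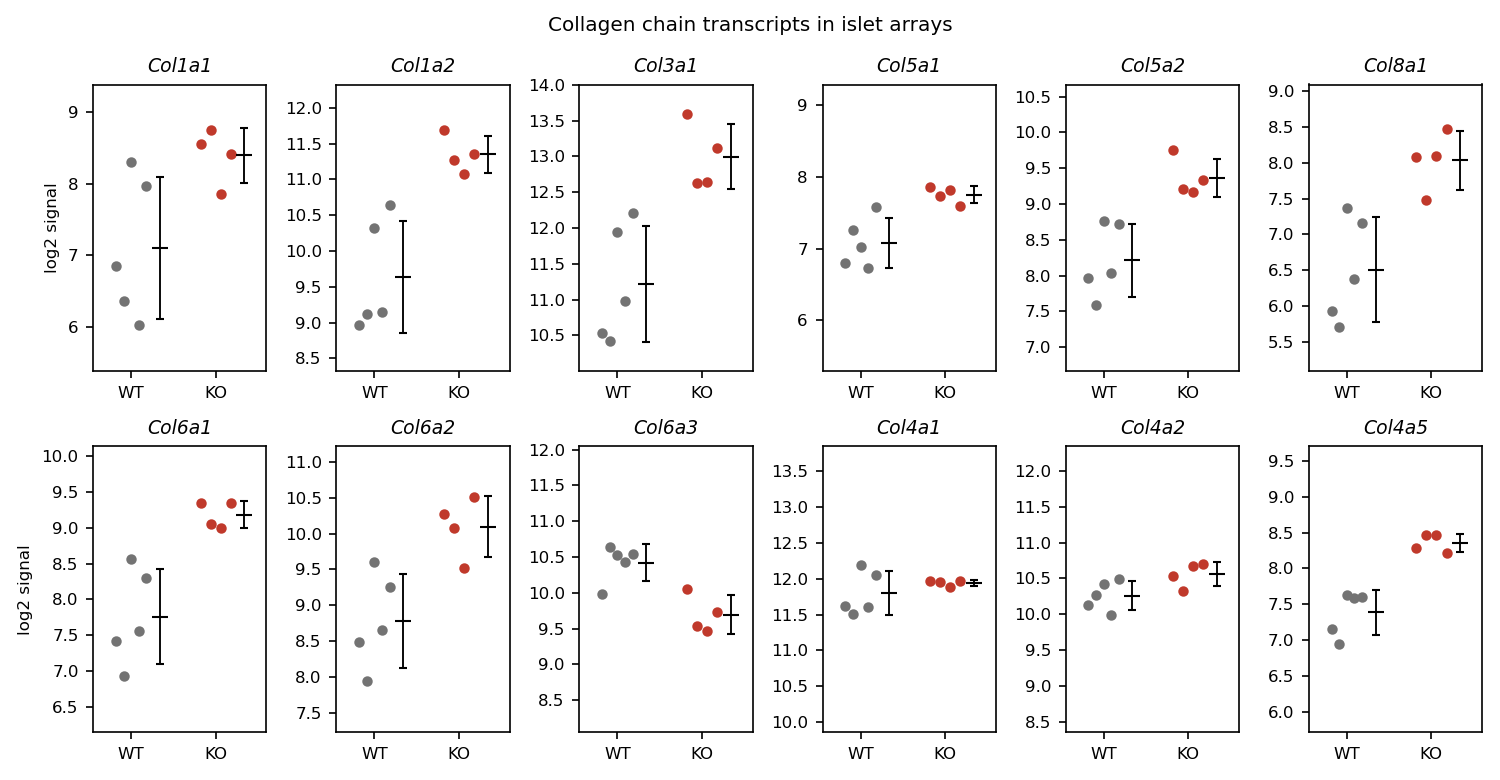
Log2 signal (y axis, every panel spans the same width) of 12 collagen genes in WT (grey, 5 arrays) and KO islets (red, 4 arrays). Points are single arrays in replicate order, and the cross bar and whiskers give mean and SD. *Col1a2*, *Col3a1*, *Col5a1*, *Col5a2*, *Col8a1*, *Col6a1* and *Col4a5* show no overlap, while *Col4a1* and *Col4a2* overlap and *Col6a3* is lower in KO islets.

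Type VI collagen is assembled from an α1, an α2 and an α3-like chain into beaded filaments around cells. Of 5 genes 4 were tested, and 1 was higher, 1 was lower and 2 were not called. *Col6a1* read 7.42, 6.94, 8.56, 7.56 and 8.30 in WT islets against 9.35, 9.05, 8.99 and 9.34 in KO islets. All KO arrays lay above WT, and the gene was 2.69-fold higher (1.43 ± 0.31, adjusted p = 0.0328). *Col6a2*, its neighbour on chromosome 10, read 8.49, 7.94, 9.60, 8.65 and 9.25 across WT arrays and 10.27, 10.08, 9.52 and 10.51 across KO arrays. One KO array fell just below the highest WT array, and *Col6a2* missed the threshold at 1.31 ± 0.34 (adjusted p = 0.0579).

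*Col6a3*, which encodes the long α3 chain, went the other way. It had log2 signals of 9.98, 10.64, 10.52, 10.42 and 10.54 on the WT arrays and of 10.06, 9.54, 9.46 and 9.73 on the KO arrays. All but 1 WT array lay above all KO arrays, the exception being WT 1, which fell below KO 1. The gene was 1.65-fold lower in βRapKO islets (-0.72 ± 0.17, adjusted p = 0.0390), and it was the only collagen gene called lower. *Col6a3* and *Col6a1* each had 1 probe set, so no second probe set stood beside either. The α3-like chains *Col6a4* (-0.31 ± 0.70) and *Col6a5* (too dim to be tested) gave no call.

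The opposite changes were tested directly on the log2 difference between *Col6a3* and *Col6a1* of each array. Since the level of such a difference also holds the brightness of each probe set, only its change between groups was read. It was 2.56, 3.70, 1.96, 2.86 and 2.23 in WT islets against 0.71, 0.49, 0.47 and 0.39 in KO islets. The groups lay far apart, with the lowest WT array above the highest KO array by more than the whole range of KO. The change was -2.15 ± 0.31, with an exact permutation p of 0.00794, the smallest that the 126 splits of 9 arrays can give. Adjusted over the 11 chain pairs compared, this became 0.0873, so no pair could fall under 0.05 on its own. *Col6a2* minus *Col6a1*, by contrast, stayed between 0.95 and 1.09 on the WT arrays and changed by -0.12 ± 0.14 (exact permutation p = 0.476, adjusted p = 0.541). This used the brightest probe set of *Col6a2*. A second one, nearly as bright, gave 0.58 ± 0.37 in limma over all probe sets (adjusted p = 0.578). Over the alternatives the change of this pair ran from -0.48 to 0.012.

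**Figure D3:**
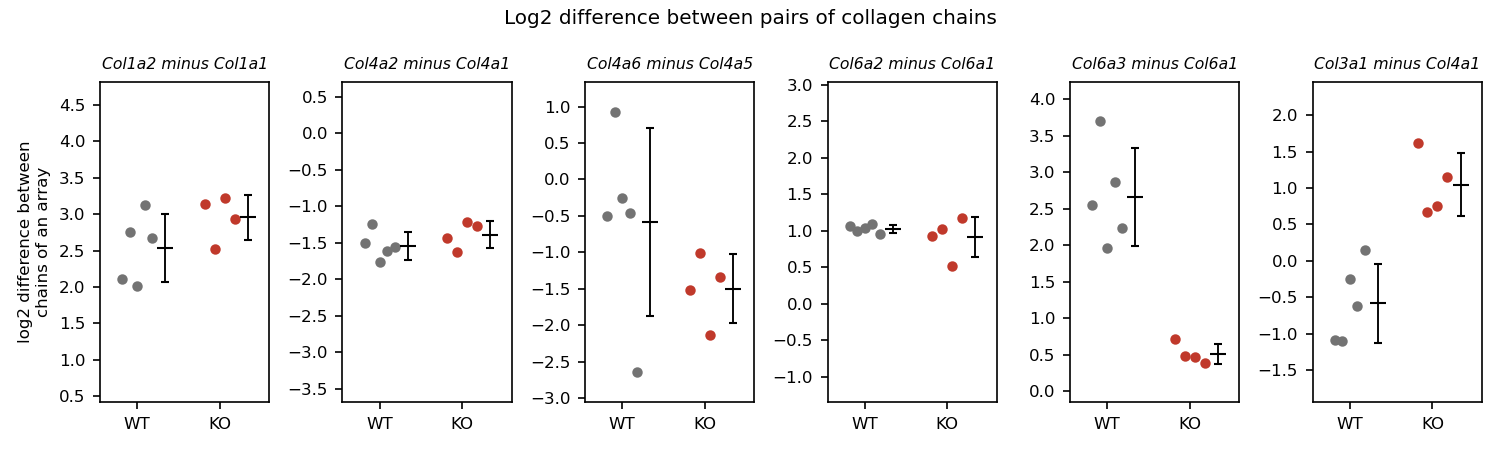
Log2 difference between the signals of chain pairs on each array (y axis) in WT (grey, 5 arrays) and KO islets (red, 4 arrays), with mean and SD beside the points. *Col6a3* minus *Col6a1* and *Col3a1* minus *Col4a1* separate the groups, with changes of -2.15 and 1.63, whereas *Col4a2* minus *Col4a1* and *Col6a2* minus *Col6a1* overlap.

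Type IV collagen forms the network of every basement membrane, for the most part from *Col4a1* and *Col4a2*. Of its 6 chain genes, all tested, 1 was higher and 5 were not called, with a median log2 difference of 0.16. *Col4a1* read 11.63, 11.51, 12.20, 11.61 and 12.05 across WT arrays and 11.97, 11.96, 11.88 and 11.97 across KO arrays. The KO arrays lay inside the WT range. The difference was 0.15 ± 0.15 (95% interval -0.20 to 0.49, adjusted p = 0.638). *Col4a2* read 10.12, 10.26, 10.43, 9.99 and 10.49 on the WT arrays and 10.53, 10.33, 10.67 and 10.71 on the KO arrays, and its difference of 0.30 ± 0.13 was not called (adjusted p = 0.225). These genes start 21 bases apart on opposite strands of chromosome 8, and their difference from each other changed by 0.15 ± 0.13 (exact permutation p = 0.254, adjusted p = 0.349).

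*Col4a5*, an X-linked chain known from the basement membranes of kidney and other tissues, was the type IV gene that passed. Its brightest probe set read 7.16, 6.95, 7.64, 7.58 and 7.60 in WT islets against 8.29, 8.46, 8.47 and 8.21 in KO islets. The groups did not overlap, and the gene was 1.96-fold higher (0.97 ± 0.16, adjusted p = 0.0105). It was also the only collagen gene with a probe set called over all 34945 probe sets (adjusted p = 0.0488), where 0.970% were called. That call was lost when any 1 array was left out, and without WT 5 the probe sets called were the dimmer one of *Col1a1* and the second one of *Col1a2*. A second *Col4a5* probe set, however, overlapped between groups and gave 0.39 ± 0.26 (adjusted p = 0.599).

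*Col4a6* starts 1343 bases from *Col4a5* on the other strand of the X chromosome. Its WT values ran from 4.96 to 7.87 and its KO values from 6.33 to 7.46. The wide WT spread left a 95% interval of -1.15 to 1.27 around its difference of 0.06. *Col4a6* minus *Col4a5* changed by -0.91 ± 0.62 (exact permutation p = 0.230, adjusted p = 0.349), so unequal change of this pair was not shown. *Col4a3* and *Col4a4*, also neighbours, had differences of 0.07 and 0.18. The multiplexins of the basement membrane zone were not called either. *Col15a1* ran from 7.61 to 8.53 in WT and from 8.12 to 8.68 in KO islets (0.33 ± 0.21, adjusted p = 0.395), and *Col18a1*, the source of the endostatin fragment, from 5.98 to 7.80 and from 7.40 to 7.86 (0.52 ± 0.34, adjusted p = 0.422).

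Fibrillar chains were set against basement membrane chains by the same within-array differences. *Col3a1* minus *Col4a1* was -1.09, -1.09, -0.25, -0.62 and 0.15 across WT arrays and 1.61, 0.67, 0.76 and 1.15 across KO arrays. No KO array overlapped WT, and the change was 1.63 ± 0.32 (exact permutation p = 0.0159, adjusted p = 0.0873). *Col1a1* minus *Col4a1* changed by 1.15 ± 0.36 (exact permutation p = 0.0397, adjusted p = 0.146). Of the 11 pairs none passed after adjustment.

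*Col8a1*, a short chain of the hexagonal networks in vessel walls and beneath the corneal endothelium, read 5.92, 5.71, 7.37, 6.38 and 7.15 on the WT arrays and 8.08, 7.48, 8.10 and 8.47 on the KO arrays. All KO arrays lay above WT, the lowest of them only slightly, and *Col8a1* was 2.88-fold higher (1.53 ± 0.37, adjusted p = 0.0456). Its partner *Col8a2* showed no overlap either (4.84 to 6.52 in WT, 6.65 to 7.65 in KO islets) but was not called at 1.11 ± 0.36 (adjusted p = 0.104). *Col10a1*, the growth plate chain of this class, was too dim to be tested. Among 9 fibril-associated genes, 6 were tested and none was called, with 2 at an unadjusted p under 0.05 in limma, which 21.8% of all genes reached. Their differences ran from -0.97 to 1.23 over *Col12a1*, *Col14a1*, *Col16a1*, *Col20a1*, *Col22a1* and *Col9a1*. *Col14a1*, which coats fibrils, came nearest with no overlap and 1.02 ± 0.27 (adjusted p = 0.0576). The 2 tested genes whose KO mean lay under the brightness limit were *Col22a1* and *Col9a1*, and no tested gene had its WT mean under it. The anchoring fibril chain *Col7a1* (-0.47) and the transmembrane chains *Col13a1*, *Col23a1* and *Col25a1* (0.25 to 0.64) were not called. *Col9a2*, *Col9a3*, *Col19a1*, *Col17a1* and *Col26a1* were too dim.

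Across all classes, the KO arrays lay entirely above the WT arrays for 10 of the 32 tested genes, against 7.43% of all genes tested, and entirely below for none, against 5.05%. The 10 were *Col1a2*, *Col3a1*, *Col5a1*, *Col5a2*, *Col5a3*, *Col6a1*, *Col8a1*, *Col8a2*, *Col14a1* and *Col4a5*. Of the 42 genes, 27 had several probe sets. Among their 40 further probe sets 23 had the sign of the brightest one, and for no gene did a pair with opposite signs both reach an unadjusted p of 0.05. The second probe sets of *Col1a2* (1.78 ± 0.40) and *Col3a1* (1.51 ± 0.38) showed no overlap, while a dim further one of *Col1a2* gave 0.61 ± 1.00. Those of *Col5a2* (1.54 ± 0.80) and *Col8a1* (0.95 ± 0.67 and 0.42 ± 0.95) overlapped between groups, and averaging took *Col8a1* from 1.53 to 0.97.

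**Figure D4:**
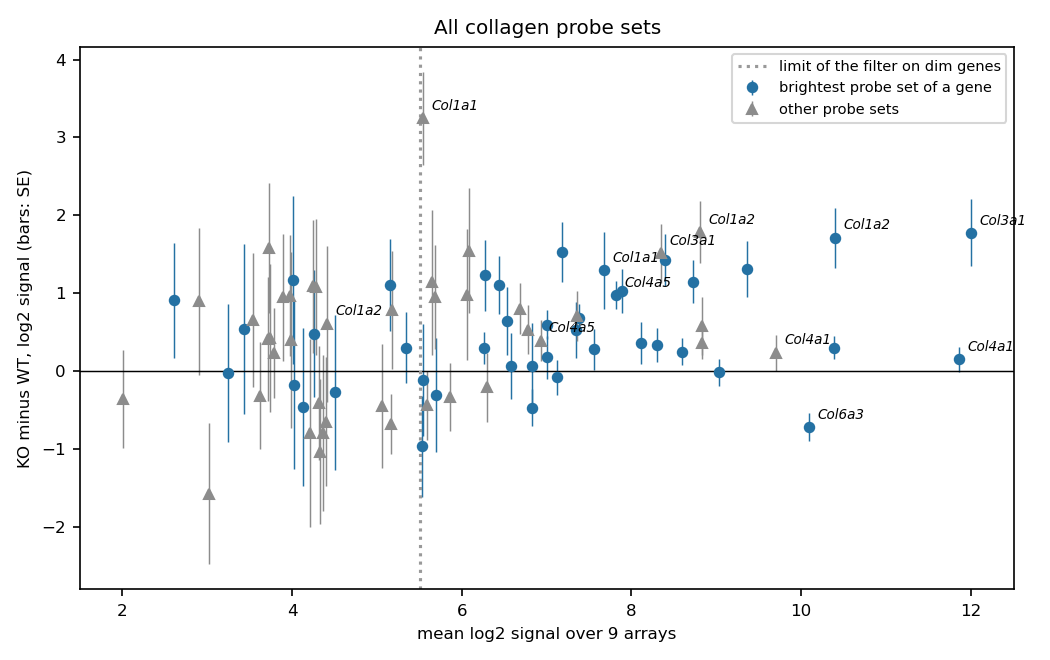
Difference between KO and WT islets in log2 signal with its SE (y axis) against the mean log2 signal over 9 arrays (x axis) for all 82 collagen probe sets. Blue circles are the brightest probe set of a gene, grey triangles the others, and the dotted line is the brightness limit of 5.51 below which genes were not tested. Dim probe sets scatter on both sides of 0 with wide errors, and bright ones lie mostly above 0, with *Col6a3* well below it.

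Most calls were lost when single arrays were left out. Leaving out WT array 1, 2, 3, 4 or 5 left 3, 2, 8, 1 and 7 called collagen genes, and leaving out KO array 1, 2, 3 or 4 left 2, 1, 1 and 1, while the count over all genes fell from 860 to between 372 and 800. *Col4a5* was called in all 9 of these fits. *Col1a2*, *Col3a1*, *Col5a2* and *Col8a1* kept their calls only without WT 3 or WT 5, *Col6a1* also without WT 2, and *Col6a3* only without WT 1 or KO 1. With no filter on dim genes 1 of the 42 was called (*Col4a5*) at a background of 2.48%, and 31 of the 42 differences were positive.

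Among the 6 genes called higher, the same WT arrays were high from gene to gene. WT 3 and WT 5 were the top WT arrays for 6 of 6, WT 3 the highest for 4 and WT 5 for 2, and KO 1 was the highest KO array for 4. Stromal markers, 16 genes of fibroblasts, pericytes and stellate cells and none of them a collagen, moved alongside. Their mean log2 signal was 7.81, 7.80, 8.32, 8.06 and 8.33 in WT islets against 9.18, 8.996, 8.79 and 9.08 in KO islets. WT 3 and WT 5 were the highest WT arrays here too, and KO lay above WT throughout. The means differed by 0.95 (exact permutation p = 0.00794, adjusted p = 0.0179 over 9 cell types). Of the 16 markers 15 had a positive difference, against 56.2% of all genes, and none lay at the floor of the scale. Called higher were 6 (*Dcn*, *Lum*, *Pdgfrb*, *Postn*, *Fbln1* and *Des*), against 3.67% of all genes, with differences from 0.72 (*Des*) to 2.04 (*Dcn*). Those not called ran from -0.19 (*Cspg4*) to 1.87 (*Pdgfra*), with *Rgs5* (0.32) and *Acta2* (0.34) among them. The study counts *Pdgfra* among disallowed genes, which are kept low in beta cells, and reported it higher in βRapKO islets by RT-PCR. Which cells its signal came from here was not tested. In RNA of whole islets, more cells of a type, more RNA per cell and less RNA from the other cells cannot be told apart. The study reported lower beta cell mass and smaller beta cells in βRapKO mice of this age. The part of stromal cells and of beta cell loss in the collagen differences was not tested. With the marker mean as a covariate, no collagen gene and no gene of the whole table was called in limma, 4 of the 32 collagen genes and 11.8% of all genes had an unadjusted p under 0.05, and the median SE of the collagen genes was 2.37 times that without it.

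**Figure D5:**
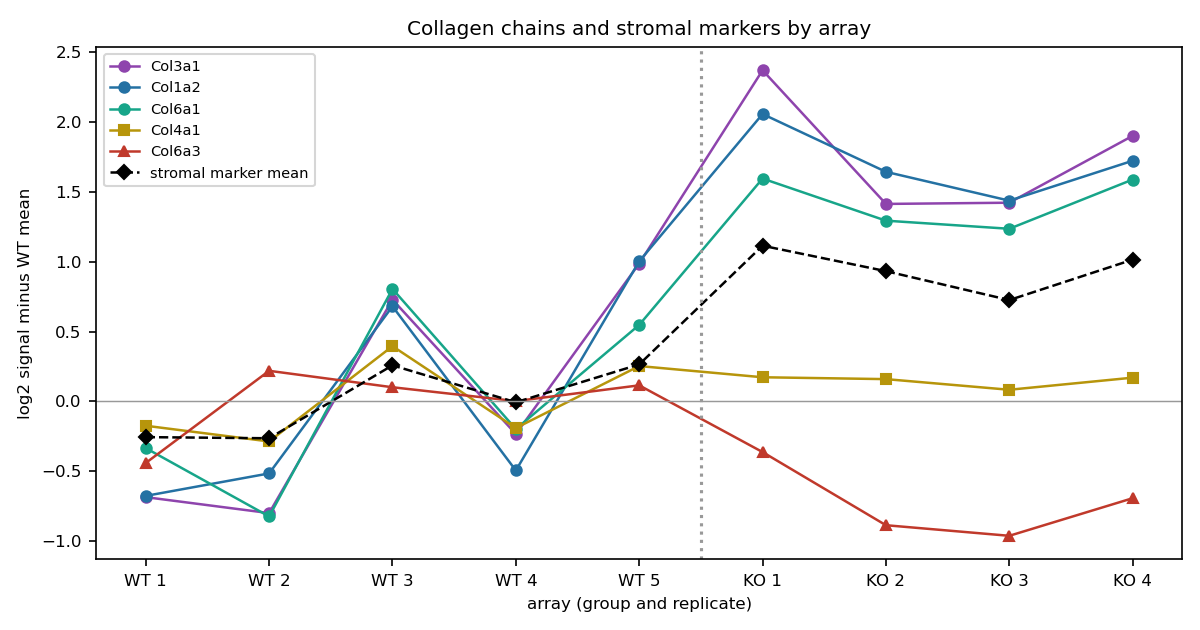
Log2 signal minus the WT mean (y axis) on each of the 9 arrays (x axis, the dotted line divides WT from KO) for 5 collagen genes and for the mean of 16 stromal markers (black diamonds). Lines join values of 1 gene and imply no order. *Col3a1*, *Col1a2*, *Col6a1* and the stromal mean are high on WT 3, WT 5 and the KO arrays, *Col4a1* differs little, and *Col6a3* is low on the KO arrays.

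Other cell types differed as well. The mean of 12 endothelial markers, the cells closest to the islet basement membrane, was 9.55 ± 0.08 in WT and 9.85 ± 0.12 in KO islets (SD; exact permutation p = 0.00794, adjusted p = 0.0179), with 11 of 12 positive, 0 called in limma and 3 at an unadjusted p under 0.05, a share near the 21.8% of all genes. The mean of 4 duct markers differed by 0.97 (exact permutation p = 0.0159, adjusted p = 0.0286), with 4 of 4 positive but 0 of 3 tested called, and the bright *Krt7* differed by 0.11 and the dimmer *Krt19* by 1.97. The mean of 6 Schwann and glial markers differed by 0.54 (exact permutation p = 0.0238, adjusted p = 0.0357). Of the 6 markers 4 were positive, against 56.2% of all genes. Of 5 tested 1 was called higher (*Cdh19*), against 3.67% of all genes, and *Gfap*, too dim to be tested, stood at -1.81. The duct mean and the Schwann and glial mean each fell short of the threshold in 6 of 12 alternatives. The mean of 6 beta cell markers was lower (-0.66), with 4 of 6 called lower, against 2.63% of all genes, and none positive. It rested on *Slc2a2* (-1.33), *Nkx6-1* (-0.95), *Ucn3* (-0.85) and *Pdx1* (-0.62), whereas *Ins2* (-0.05) and *Iapp* (-0.12) differed little and were not called. The delta cell mean (0.40) rested on *Hhex* (0.84), and *Sst* differed by -0.04, so 1 of 2 markers was positive. Both means had an exact permutation p of 0.00794 and an adjusted p of 0.0179. Macrophage (0.26, exact permutation p = 0.103, adjusted p = 0.133), alpha cell (0.15, exact permutation p = 0.127, adjusted p = 0.143) and acinar (-0.45, exact permutation p = 0.635, adjusted p = 0.635) marker means did not pass. The part of these cell types in the collagen differences was not tested. *Rptor*, the targeted gene, was lower in KO islets by its brightest probe set (9.47 ± 0.21 in WT, 8.75 ± 0.32 in KO, SD; -0.72 ± 0.17 SE, adjusted p = 0.0410), a call lost in 12 of 18 alternatives, and where that probe set lies relative to the deleted exons was not examined.

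Genes that make, cut, join and bind collagens were counted beside the chains. Of 20 tested genes for collagen modification and folding, 2 were higher, against 3.67% of all genes, and none lower, with a median difference of 0.21. They were the prolyl 3-hydroxylases *P3h1* (7.69 to 8.09 in WT, 8.39 to 8.59 in KO islets; 0.53 ± 0.10, adjusted p = 0.0218) and *P3h2* (6.04 to 7.41 in WT, 8.03 to 8.29 in KO islets; 1.46 ± 0.30, adjusted p = 0.0260). Neither overlapped between groups, and 17 of the 20 differences were positive, against 56.2% of all genes. None of 7 tested genes for procollagen processing and crosslinking was called, with 4 at an unadjusted p under 0.05 in limma, against 21.8% of all genes. *Loxl1*, a lysyl oxidase-like crosslinking enzyme, had the lowest p and no overlap (5.63 to 7.66 in WT, 7.97 to 8.58 in KO islets; 1.53 ± 0.45, adjusted p = 0.0803). None of 7 tested collagen receptors was called and 0 had an unadjusted p under 0.05, with *Ddr2*, a receptor kinase for fibrillar collagen, lowest in p at 0.56 ± 0.26 (adjusted p = 0.246).

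The partners of type IV collagen in basement membranes had 3 of 13 genes higher, none lower, 11 positive and a median of 0.69. Of all genes tested, 3.67% were called higher and 56.2% had a positive difference. *Sparc*, a collagen-binding glycoprotein, rose from 11.52 ± 0.26 to 12.31 ± 0.14 (SD; adjusted p = 0.0159). *Nid1*, the nidogen that links laminin with type IV collagen, rose from 10.04 ± 0.27 to 10.78 ± 0.14 (adjusted p = 0.0218), and *Smoc1*, a relative of *Sparc*, from 7.12 ± 0.42 to 8.25 ± 0.39 (adjusted p = 0.0329). For these 3 genes the groups did not overlap. Of the 5 called genes of these lists, the count was 0 without KO 1, 1 without KO 4 and 3 without WT 1, KO 2 or KO 3. Over all alternatives the call was lost in 7 of 18 for *P3h1*, 8 of 17 for *P3h2*, 8 of 18 for *Nid1*, 11 of 17 for *Smoc1* and 4 of 18 for *Sparc*, and with averaged probe sets *Sparc* differed by 0.40 (adjusted p = 0.169). For *P3h2*, *Nid1* and *Sparc*, WT 3 and WT 5 were the highest WT arrays, as for the stromal marker mean. This order was not seen for *P3h1*, where WT 3 lay below WT 2 and WT 4. Nor was it seen for *Smoc1*, where WT 5 was the lowest WT array. The part of stromal cells in the differences of these lists was not tested.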

How the data were processed

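Islet RNA, with an RNA integrity number cut-off set by the study, was labelled with a 3′ in vitro transcription kit and hybridised to whole-genome Affymetrix arrays for mouse. The 5 WT and 4 KO arrays each held a separate pool of 5 animals. The authors deposited 1 log2 signal per probe set and array. The methods name Genespring. How probes were summarised and scaled is not given in the sources used here, and the trimmed mean of the linear signal was 497.1 to 497.7 on every array. P-values measure the spread between pools, and the number of arrays limits the precision. Dates of scanning were not used, so batches were not examined.

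Of 45037 probe sets 34945 were paired with 1 gene, 932 with several. A gene was represented by its brightest probe set by mean signal. Genes in the lowest 0.25 by that mean (log2 under 5.51) were dropped, leaving 13644. Symbols of all 42 collagen genes matched RefSeq. The group comparison used limma (version 3.58.1; R 4.3.3) with its lmFit and eBayes steps (two-sided, no covariate, Benjamini-Hochberg over all genes tested, threshold 0.05), with the values as deposited. All probe sets were fitted separately without a filter. Chain differences and marker means were compared by exact two-sided permutation over 126 splits. The scripts were tested on simulated data.

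Named were all called collagen genes, 12 chains whatever their result, the other collagen genes by class, up to 4 called members of each other list or else the one of lowest p, and *Rptor*. Members, lists and tests were chosen with earlier results of these data known. Alternatives covered the filter, averaged probe sets, median centring, quantile normalization, the methods' unpaired t-test, a variance trend, the stromal marker mean as a covariate, a replicate block and leaving out each array.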

Additional observations from a re-analysis of the deposited data

Results flagged for a closer look

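Among 84 groups of 4 or 5 arrays (named genes, chain pairs and marker means), 4 held a value set apart from the rest by Dixon's criterion, where chance gives about 1 in 20. *Col4a1* on KO array 3 was 11.88 against 11.96 for the nearest KO array, and the other KO arrays nearly coincided. The endothelial marker mean on WT array 1 was 9.42, with the nearest WT array at 9.56. For Schwann and glial markers WT array 2 lay at 5.19 and the nearest at 6.16, and for alpha cell markers WT array 5 lay at 13.60 and the nearest at 13.31.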

How the results depend on the processing

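The count of called collagen genes (7) became 1 without a filter, 0 with averaged probe sets, 2 with median centring, 4 with quantile normalization, 1 with the methods' unpaired t-test, 9 with a variance trend and 0 with the stromal covariate, and ranged from 1 to 8 when arrays were left out. For the processing, receptor and basement membrane genes (5) the same settings gave 3, 1, 3, 4, 4, 9 and 0, and 0 to 6. Called collagen probe sets (1) were 0 with centring and with quantile normalization and 0 to 2 without single arrays, and cell types past the threshold (6) were 3 with averaged probe sets, 3 with centring and 4 to 7 without single arrays. No chain pair passed except with averaged probe sets, where 2 did (*Col6a3* with *Col6a1* and *Col3a1* with *Col4a1*). With median centring the same 25 of 32 collagen differences were positive. The cause of these changes was not tested.

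Replicate numbers of WT and KO arrays shared only a number: deviations of same-numbered arrays correlated at -0.04, 0.09, 0.12 and -0.03. With the replicate block over replicates 1 to 4, 0 collagen genes, 0 genes of the other lists and 61 genes of the whole table were called in limma, and 15 collagen genes and 20 of the other lists had an unadjusted p under 0.05 (10 and 11 with averaged probe sets, 4 and 8 with the stromal covariate), against 19.5%, 16.7% and 11.8% of all genes under these settings.

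With the stromal marker mean as a covariate, which itself separates the groups, the sign turned for *Col1a1* (-1.25), *Col1a2* (-0.62), *Col3a1* (-0.98), *Col5a2* (-0.50), *Col4a1* (-0.68), *Col4a2* (-0.031), *Col6a1* (-0.55), *Col6a2* (-0.90), *Col15a1* (-0.69), *Col18a1* (-1.50), *Col8a1* (-0.58), *Loxl1* (-1.47), *Ddr2* (-0.90), *Sparc* (-0.011) and the fibrillar median (-0.56), none of them called, while *Col6a3* (-1.34) and *Col4a5* (0.32) kept theirs. With averaged probe sets the changes of *Col1a2* minus *Col1a1*, *Col3a1* minus *Col1a1* and *Col8a2* minus *Col8a1* turned to -0.90, -0.63 and 0.14. The change of *Col4a4* minus *Col4a3* turned to -0.0024, -0.12 and -0.29 without WT 1, WT 4 and KO 3 (up to 0.51 without other arrays). That of *Col6a2* minus *Col6a1* turned to 0.012 without KO 3 (down to -0.20 without other arrays, and -0.48 with averaged probe sets). The acinar marker difference turned to 0.29 without KO 3 (down to -1.09 otherwise). *Col4a5* kept its call in 14 of 17 alternatives, *Col1a2* in 6 of 18, *Col3a1*, *Col6a1* and *Col6a3* in 5 of 18 each, *Col5a2* in 4 of 18 and *Col8a1* in 3 of 17.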
